A study of Arabidopsis thaliana with 22 samples.

Results

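The genes described here are 5 Arabidopsis genes whose transcripts were more abundant in roots without sulfate, with the widest gap at the last time sampled: AT3G56200, AT4G31330, AT1G75280, AT1G12200 (symbol FMO) and AT3G27150. They are 5 of 13286 genes that have a probe set listing no other gene. They were chosen by the measured difference in signal between sulfate-free and sulfate-replete medium on these same arrays, and by its growth with time. Their levels and their differences between media are therefore a description and carry no test. All 5 passed the filter on low signals.

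RNA came from roots of 10-day-old Col-0 plants, and 22 samples went on 1 array each. Plants were moved to MGRL agar with 0 uM sulfate (sulfate-free) or 1500 uM sulfate (replete) and sampled at 2, 4, 8, 12 and 24 h. A further group, 0 h, received no treatment and is called untreated; its title places it with 1500 uM sulfate. Each of the 11 groups has 2 arrays, lettered A and B. The labels do not say whether the pair came from separate cultures. The p-values therefore cover the variation between these arrays alone, and that variation may be technical. Median signals lay between 42.464 and 46.136. Of 14 root markers 3 were on named probe sets, among them the root beta-glucosidase gene PYK10 with a mean signal of 3214, and the sum of the 3 lay between 2229 and 4357 on every array. Of 17 green tissue markers, LHCB4.1 and RCA were on named probe sets, and their sum lay between 124 and 437. Of the root, green tissue and dividing cell markers measured, 0 were called between media by limma at 24 h or for the mean over times (0 and 1 at an unadjusted p under 0.05), where 0.359% and 0.476% of all probe sets were called. In RNA from whole roots, fewer cells of a type and less transcript per cell cannot be told apart.

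Roots short of sulfate raise the uptake and reduction of sulfate, release sulfur from stored compounds such as glucosinolates, and slow the synthesis of new ones. Much of this transcript response depends on the transcription factor SLIM1. Amino acid transporters move amino acids across membranes, and members of the family that includes AT3G56200 act at the vacuole. AT4G31330 encodes a predicted membrane protein with a DUF599 domain and no known function. AT1G75280 belongs to the isoflavone reductase-like oxidoreductases, a family that uses NADPH and includes genes known from oxidative stress. FMO is a flavin-containing monooxygenase, an enzyme class that in Arabidopsis includes the S-oxygenases of glucosinolate side chains. AT3G27150 encodes an F-box protein with kelch repeats whose messenger is a target of the microRNA miR2111. F-box proteins choose substrates for ubiquitination, and in Lotus a kelch F-box target of miR2111 restrains nodulation.

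The putative transporter gene AT3G56200 had more transcript without sulfate at the first time sampled. Untreated arrays A and B read 117 and 108 signal units. At 2, 4, 8, 12 and 24 h without sulfate, the same pair read 180.3 and 179, 214 and 205, 220.3 and 268, 265 and 283, and 408 and 399.6. On replete medium the readings were 132 and 138, 147 and 115, 120.3 and 148, 164 and 157, and 165 and 141 at the same times. Every sulfate-free array was therefore above every replete and untreated array, at whatever time it was taken. The log2 differences between media were 0.39, 0.64, 0.82, 0.74 and 1.34 (SE 0.14 at each time). At 2 h 28.8% of the 24 h log2 difference was present, and 60.9% at 8 h.

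AT4G31330 had the largest difference between media at 24 h. Its untreated arrays read 49.5 and 42.9. At the 5 times without sulfate, arrays A and B read 56.0 and 47.0, 65.2 and 52.5, 83.4 and 108, 121 and 214, and 329 and 438. On replete medium they read 29.1 and 33.6, 49.2 and 29.5, 39.1 and 33.6, 52.5 and 40.2, and 49.9 and 57.8. The sulfate-free arrays lay above the replete arrays of the same time at all 5 times, while at 2 h they overlapped with the untreated ones. The log2 differences between media were 0.56, 0.49, 1.16, 1.59 and 2.59 (SE 0.24 at each time). The ratio of mean signals at 24 h was 7.12, larger than the 6.03 given by the log2(signal + 11) scale, because the added 11 weighs on a replete mean of 53.9 ± 5.53 (SD, n = 2). The 12 h arrays differed most, with a difference between media of 1.05 for the A arrays and 2.14 for the B arrays.

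AT1G75280 was the gene of the 5 whose difference grew at every step. Its untreated arrays read 343 and 322. The sulfate-free readings, in the same order of times and letters, were 357 and 362, 434 and 384, 455 and 524, 643 and 640.2, and 1178 and 1060.1. On replete medium they were 333 and 328, 360.2 and 373, 343 and 396, 381 and 408, and 475 and 383. Both sulfate-free arrays lay above both replete arrays at each time, although the closest arrays read 357 against 333 at 2 h and 384 against 373 at 4 h. The log2 differences of 0.12, 0.15, 0.40, 0.69 and 1.37 (SE 0.12 at each time) put 8.60% of the 24 h difference at 2 h and 50.2% at 12 h. A difference above 0 at 2 h that grew at each later time was found for 0.147% of the probe sets kept, and for 1 of the 5 genes, which were chosen for this growth.

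The signal of FMO was higher on replete medium than in untreated roots for part of the course. Untreated arrays read 110.3 and 123. Without sulfate the successive times gave 137 and 154, 237 and 189, 189 and 202, 205 and 251, and 249 and 274. Replete arrays read 113 and 127, 184 and 167, 179 and 203, 170.2 and 185, and 143 and 156. At 8 h the media overlapped, and at the other 4 times both sulfate-free arrays were above both replete arrays. The log2 differences between media were 0.26, 0.26, 0.03, 0.34 and 0.77 (SE 0.14 at each time), so that 4.48% of the 24 h difference was present at 8 h. Between 8 and 24 h the replete mean went from 191 ± 16.4 to 149 ± 9.11 (SD, n = 2), while the sulfate-free mean went from 196 ± 8.82 to 261 ± 17.5.

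The kelch F-box gene AT3G27150 had low signals early in both media. Its untreated arrays read 139 and 133. The sulfate-free arrays read 86.0 and 121 at 2 h and 96.7 and 80.5 at 4 h, then 182 and 198, 176 and 308, and 296 and 382 at the later times. On replete medium they read 66.5 and 98.9, 71.1 and 87.6, 102 and 115, 116 and 136, and 122 and 161. All 8 arrays of 2 and 4 h lay below the untreated pair, and the media overlapped at both times. From 8 h on the sulfate-free arrays were above the replete and the untreated arrays. The log2 differences between media were 0.30, 0.14, 0.75, 0.84 and 1.20 (SE 0.23 at each time), so that 63.0% of the 24 h difference was present at 8 h.

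**Figure D1:**
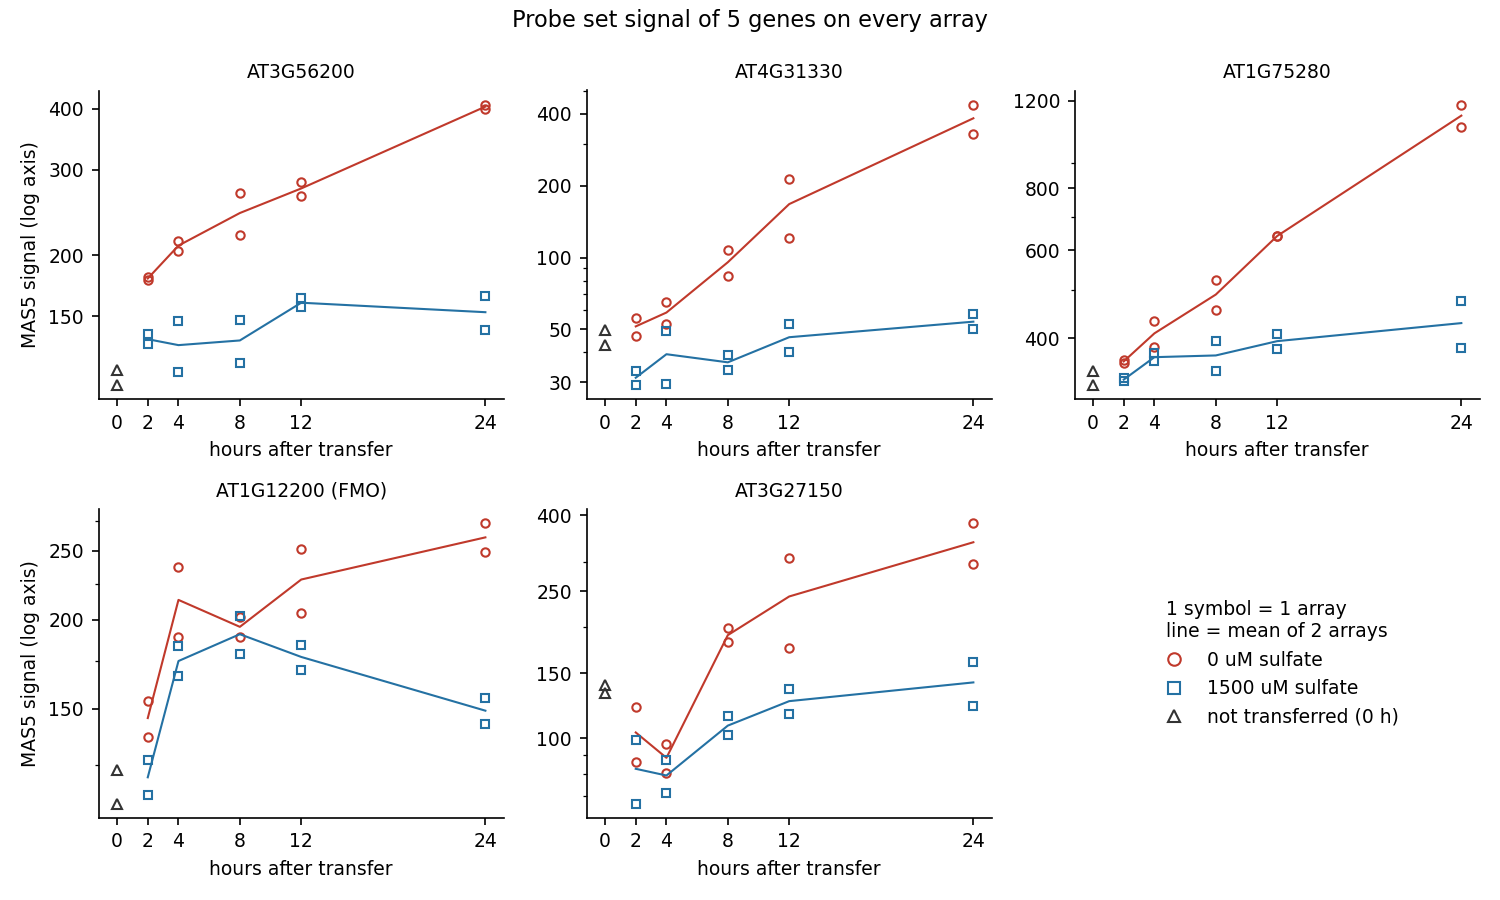
Signal of each of the 5 genes (log axis, MAS5 signal units, each panel with its own range) against hours after transfer, with 1 symbol per array and lines through the means of 2 arrays. AT4G31330 reaches 329 and 438 at 24 h without sulfate, FMO reads alike in both media at 8 h, and AT3G27150 lies below its untreated arrays in both media at 2 and 4 h.

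Over all 5 genes, both sulfate-free arrays were above both replete arrays in 22 of 25 pairs of gene and time: in 4 genes each at 2, 4 and 8 h, and in all 5 at 12 and 24 h. Among all probe sets kept, the percentages with this order were 13.2, 11.2, 16.6, 19 and 13.4 at 2, 4, 8, 12 and 24 h. AT3G56200, AT4G31330 and AT1G75280 had it at all 5 times, as did 0.161% of the probe sets. The genes were chosen for a difference between media, so these counts describe the choice. Compared letter by letter, the sulfate-free array was the higher one except for the B arrays of AT3G27150 at 4 h (-0.11 on the log2 scale) and of FMO at 8 h (-0.01). This order too describes the choice.

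**Figure D2:**
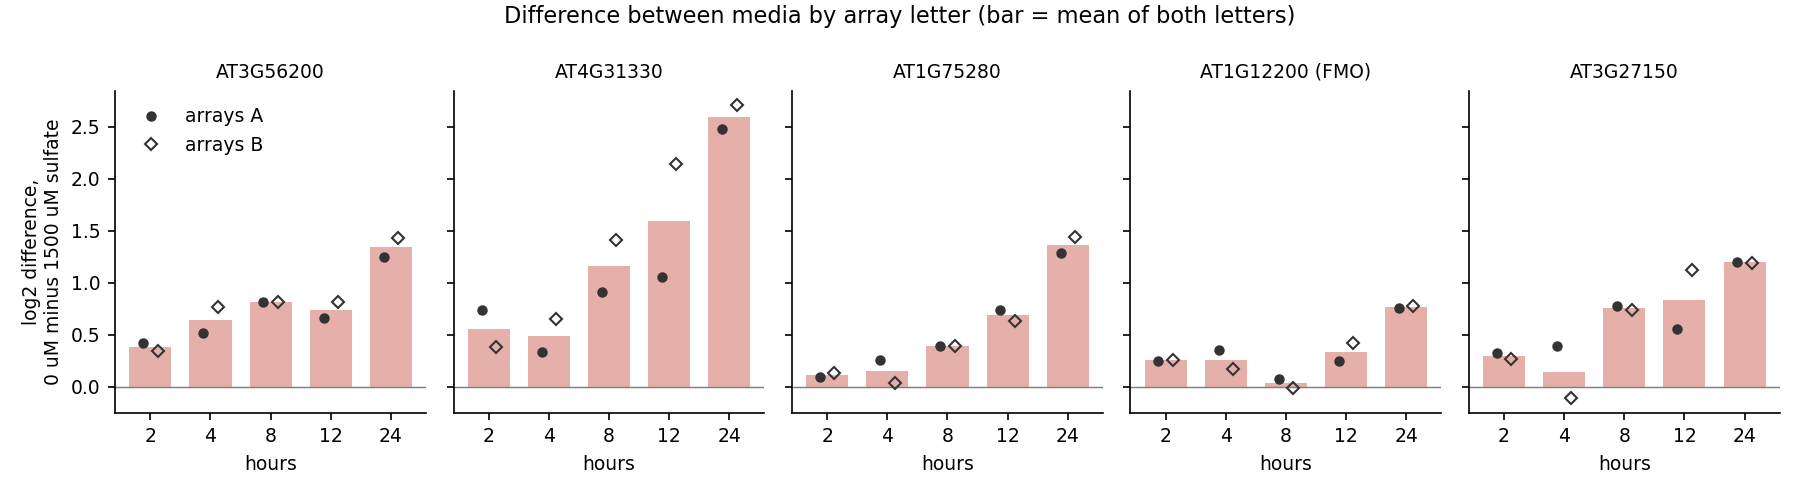
Difference between media for the 5 genes (log2(signal + 11), 0 uM minus 1500 uM sulfate) at each time, with bars for the mean of both letters, filled circles for the A arrays and open diamonds for the B arrays. AT4G31330 at 12 h shows the widest spread between letters, 1.05 and 2.14, and the FMO bar at 8 h is close to 0.

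The 5 genes had unlike orders of levels over the 11 groups. For AT3G56200 the 5 sulfate-free groups were the 5 highest, and its highest replete group, 12 h with a mean of 160.1 ± 4.99 (SD, n = 2), did not overlap with the lowest of them. For AT4G31330 the sulfate-free 8, 12 and 24 h groups stood apart from each other and from all lower groups, whereas the 7 groups from the replete 8 h roots to the sulfate-free 4 h roots each overlapped with the next. For AT1G75280 the sulfate-free 12 and 24 h groups stood apart from the rest, and the 8 h group overlapped with the replete 24 h group. The 3 highest groups of AT3G27150 were the sulfate-free 8, 12 and 24 h groups, of which each overlapped with the next, and FMO had 7 groups from the replete 4 h to the sulfate-free 24 h roots of which each overlapped with its neighbour.

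For 2 of the genes the letters differed in most groups. Array B was above array A in 9 of 11 groups for AT3G27150 and in 9 of 11 for FMO, with median log2 differences of 0.26 and 0.13. For AT4G31330, AT3G56200 and AT1G75280 it was above in 5, 4 and 5 of 11. The widest gaps within a group were those of AT4G31330 and AT3G27150 in the sulfate-free 12 h roots, 0.77 for each, with B above A.

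Compared with untreated roots, the sulfate-free signals of the 5 genes at 24 h were higher by log2 1.75 (AT3G56200), 2.77 (AT4G31330), 1.72 (AT1G75280), 1.09 (FMO) and 1.24 (AT3G27150). Both sulfate-free arrays were above both untreated arrays in 22 of 25 pairs of gene and time: 3 genes at 2 h, 4 at 4 h, and all 5 later. Over all probe sets kept this order was met by 19.3, 18.3, 26.5, 30.9 and 21.9% at the 5 times. The exceptions were AT4G31330 at 2 h, which overlapped, and AT3G27150 at 2 and 4 h, where the sulfate-free arrays were below the untreated ones by 0.37 and 0.56 on the log2 scale. This comparison shares its sulfate-free arrays with the one that chose the genes and is given without a test. The replete comparison that follows shares the same untreated arrays.

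Replete roots were tested against untreated roots, a contrast other than the one that chose the genes, which set sulfate-free against replete roots. It covers the transfer and the hour of sampling together, since untreated roots were taken at 0 h alone. The part of each was not tested. The replete arrays entered the choice of the genes as its lower side. The 2 contrasts are therefore not independent, and the p-values take no account of the choice. FMO rose on replete medium relative to untreated roots, and was the gene of the 5 with calls at more than 1 time in limma without a block. By limma its log2 difference (SE 0.14) was 0.54 (adjusted p = 0.0477) at 4 h, 0.66 (adjusted p = 0.00982) at 8 h and 0.56 (adjusted p = 0.0218) at 12 h, whereas the values of 0.04 at 2 h and 0.33 at 24 h were not called (adjusted p = 0.953 and 0.725). Both replete arrays were above both untreated arrays at 4, 8, 12 and 24 h. The mean over the 5 times was 0.43 (SE 0.11, adjusted p = 0.0339), and the F-test over the replete course and the untreated roots gave adjusted p = 0.0105. FMO's calls depended on single arrays: without the untreated array A the mean had adjusted p = 0.52 and none of the single times passed, and without the untreated array B the mean had adjusted p = 0.101. The mean also missed the threshold without the replete array B of 2 h (0.0567), 12 h (0.0586) or 24 h (0.0537), and the 8 h call without replete array B of that time (0.0629). The 12 h call was lost without either untreated array or either replete 12 h array (adjusted p between 0.0503 and 0.208). The 4 h call was lost without any of 10 single arrays and under 4 other settings, with adjusted p between 0.0529 and 0.0845 under the latter. In replete roots the sum of the 2 green tissue markers was lower than in untreated roots, where it was 371 and 437. It lay between 150.3 and 164 at 12 h and between 333 and 354 at 24 h. Of the 2, RCA fell for the replete mean (-0.76, adjusted p = 0.0379 by limma) and LHCB4.1 was not called (-0.52, adjusted p = 0.189). The part of these markers in the differences of FMO was not tested.

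AT3G56200 rose on replete medium at 12 h, by 0.47 (SE 0.14, adjusted p = 0.0496 by limma), a value next to the threshold of 0.05. Its differences at the other times were between 0.19 and 0.41 with adjusted p between 0.389 and 0.677, and the mean of 0.31 had adjusted p = 0.127. The call at 12 h was lost under 4 of the other settings tried and without any of 8 single arrays, with adjusted p up to 0.202. Both replete arrays were above both untreated arrays at 2, 8, 12 and 24 h.

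AT3G27150 had negative differences on replete medium at 2 and 4 h, -0.67 (SE 0.23, adjusted p = 0.166) and -0.71 (SE 0.23, adjusted p = 0.159), that missed the threshold in limma without a block. With the array letter as a factor, 1 of 2 blocked fits, it was called lower at both times (adjusted p = 0.0238 and 0.0202) and its F-test over the replete course passed (adjusted p = 0.00799, against 0.110 without the block). With a block of time and letter none of these was called (adjusted p = 0.130 at 2 h, 0.119 at 4 h and 0.0755 for the F-test). The replete arrays entered the choice of the genes as its lower side, which favours a low replete value. The p-values take no account of that. The later differences of -0.30, -0.10 and 0.04 were not called, the smallest adjusted p being 0.510. Both replete arrays were below both untreated arrays at 2, 4 and 8 h.

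For AT1G75280 and AT4G31330 no replete group passed the test against untreated roots. AT1G75280 differed by -0.01, 0.14, 0.14, 0.24 and 0.35 (SE 0.12) at the 5 times, with adjusted p = 0.268 at 12 h and 0.59 at 24 h. AT4G31330 differed by -0.43, -0.21, -0.27, 0.00 and 0.18 (SE 0.24), with adjusted p = 0.454 at 2 h. With standard errors of this size, small changes were not detectable with 2 arrays a group.

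In all, 4 of 25 pairs of gene and time were called: 1 gene each at 4 and 8 h, 2 at 12 h, and 0 at 2 and 24 h, where 1 and 3 genes had an unadjusted p under 0.05. The percentages called over all probe sets in either direction were 3.47, 2.39, 4.84, 6.39 and 0.0366. For the mean over times 1 of 5 genes was called against 3.79% of all probe sets, and for the F-test 1 of 5 against 8.07%. With the letter factor 6 of 25 pairs were called, and 2 of 5 genes by the F-test. In 12 of 25 pairs both replete arrays were above both untreated arrays, an order met by 17.8, 17, 23.9, 29.5 and 19% of all probe sets at the 5 times. In 5 pairs they were below, as for 25.4, 19.6, 24.5, 27.8 and 18.6%.

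**Figure D3:**
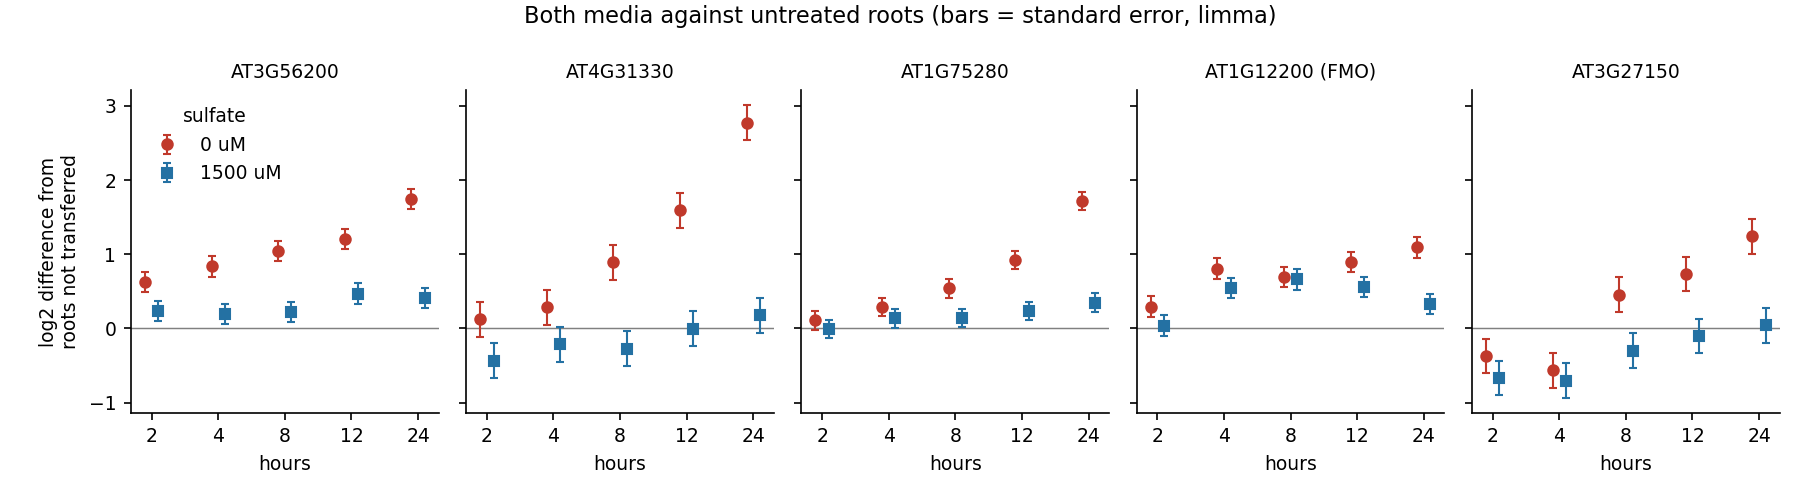
Difference of each medium from untreated roots for the 5 genes (log2(signal + 11)) at each time, with means of 2 arrays and bars of 1 standard error from limma. Replete FMO lies at 0.54 to 0.66 from 4 to 12 h and at 0.33 at 24 h, replete AT3G27150 lies at -0.67 and -0.71 at 2 and 4 h, and sulfate-free AT4G31330 reaches 2.77.

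The neighbours of AT1G75280 on its chromosome include 2 genes of the same family, AT1G75290 next to it and AT1G75300 after that. Both had signals too low for the filter and were tested without it. AT1G75290 read 1.94 and 6.46 on the untreated arrays and between 3.57 and 13.8 on the replete arrays. Its sulfate-free means over the 5 times were 10.4 ± 0.948, 12.0 ± 0.505, 16.7 ± 0.545, 61.0 ± 3.06 and 94.3 ± 10.0 (SD, n = 2). Relative to replete medium it rose by limma at 12 h (log2 difference 1.95, SE 0.21, adjusted p = 6.14e-04) and at 24 h (2.32, SE 0.21, adjusted p = 3.19e-05), and was not called at 8 h (0.52, adjusted p = 0.648). Of all probe sets without the filter 0.0967% rose at 24 h. AT1G75290 was named after its values were seen, and its p-values take no account of that. Its sulfate-free arrays read between 9.74 and 17.1 up to 8 h and between 58.9 and 101 from 12 h. At 8 h its mean was 16.7 without sulfate and 8.60 on replete medium, and AT1G75280 was 1.33-fold above replete by mean signal.

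The replete signals of AT1G75290 are not shown to be above background, since the 25th percentiles of the arrays lay between 9.502 and 13.754. The size of its rise at 24 h therefore depends on the pseudocount, with 3.14 for 1 and 1.58 for 32, and its call was kept in both. AT1G75300 read 12.3 and 14.0 without sulfate and 10.5 and 0.966 on replete medium at 24 h, a log2 difference of 0.59 (SE 0.26) that was not called (adjusted p = 1). Whether the probes of AT1G75280 and AT1G75290 also bind each other's transcripts was not tested, so their values are uncertain to that extent.

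**Figure D4:**
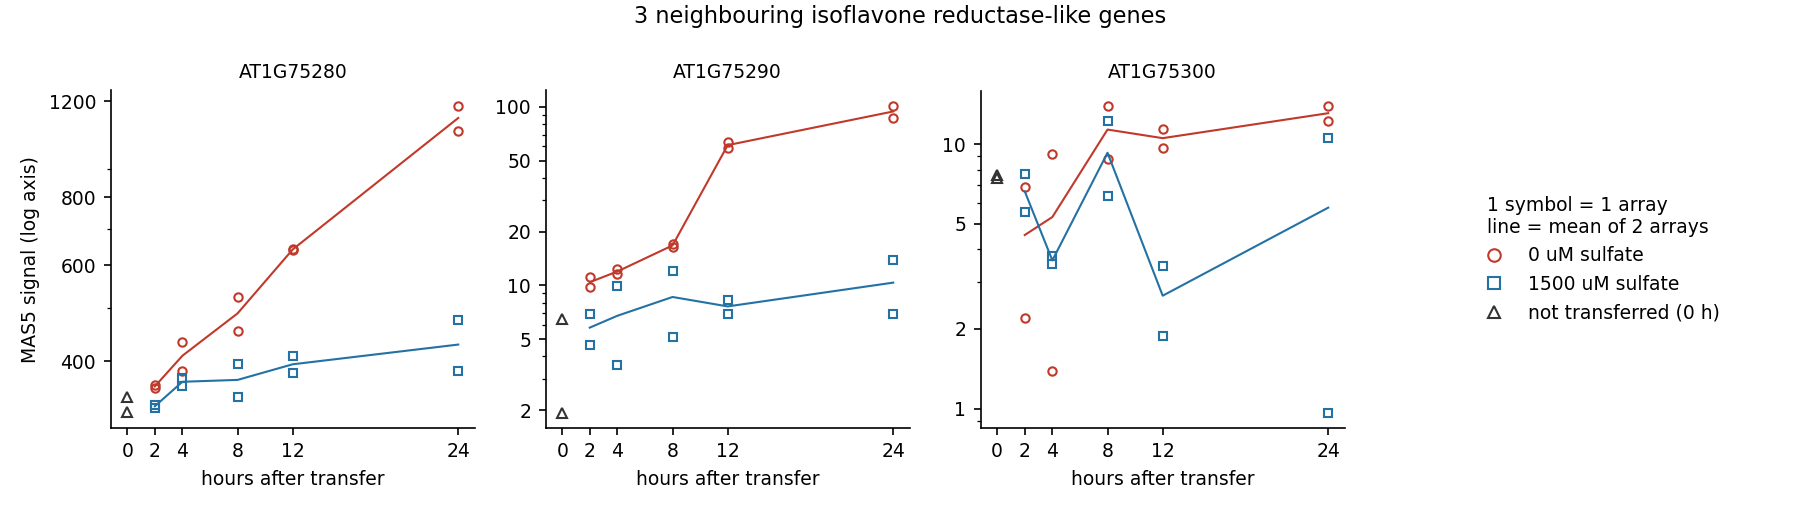
Signal of AT1G75280, AT1G75290 and AT1G75300 (log axis, MAS5 signal units, each panel with its own range) against hours after transfer, with 1 symbol per array and lines through the means of 2 arrays. AT1G75290 goes from 16.7 at 8 h to 61.0 at 12 h without sulfate, and the arrays of AT1G75300 stay at 14.0 or lower.

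Apart from AT1G75290, homologues of the 5 genes gave no call between media at 24 h or for the mean over times in limma with the filter. Over all probe sets kept, 0.359% and 0.476% were called, and at that share lists this short could hold 0 calls. The lists were drawn up with earlier results of these data known, and at 24 h the median log2 difference over all probe sets was 0.00. Of 18 AVT-family amino acid transporters related to AT3G56200, 10 were tested and 0 passed at 24 h (0 at an unadjusted p under 0.05), with log2 differences between -0.09 and 0.19 and a median of 0.04. Of those with the highest signals, AT3G30390 read 1499 without sulfate and 1516 with it, AT4G38250 read 578 and 566, and AT1G47670 read 329.8 and 318. Of 6 DUF599 genes related to AT4G31330, 3 were tested and 0 passed (1 at an unadjusted p under 0.05, median -0.16), with AT5G10580 at 697 and 783, AT5G43180 at 309.9 and 419, and AT3G18215 at 239.8 and 248. AT5G43180 fell on replete medium relative to untreated roots over the 5 times (-0.67, adjusted p = 0.00164 by limma), while AT4G31330 differed there by -0.15 (adjusted p = 0.737).

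Of 7 isoflavone reductase-like genes, 3 were tested with the filter and 0 passed at 24 h (0 at an unadjusted p under 0.05, median 0.12). AT1G75290, which lay below the filter, is given above. AT4G39230 read 52.1 without sulfate and 51.4 with it, AT4G34540 53.3 and 47.9, and AT1G19540 35.5 and 31.2. AT4G39230 rose on replete medium relative to untreated roots (0.60, adjusted p = 0.00831 by limma). Of 27 flavin monooxygenase genes, 5 were tested and 0 passed (0 at an unadjusted p under 0.05, median 0.08), among them AT1G12160 at 162 and 177, the auxin synthesis gene YUC6 at 71.2 and 53.5, and AT5G61290 at 54.8 and 63.9. Named probe sets held 8 of the 27. AT1G65860, AT1G62540, AT1G62560, AT1G62570 and AT1G12140 were not among these, so the result does not cover them. Of 18 kelch F-box genes, 12 were tested and 0 passed (2 at an unadjusted p under 0.05, median -0.10), including AT1G67480 at 279 and 335, AT5G60570 at 264 and 299, and AT2G02870 at 147 and 159.9. Every homologue tested with the filter had a 24 h difference below that of the member it was listed for. The members had been chosen for that difference. AT1G75290, tested without the filter, had a larger one than AT1G75280 (2.32 against 1.37). For the replete mean relative to untreated roots, 4 of the homologues tested with the filter were called by limma, beside 3.79% of all probe sets. Tested were 3 DUF599, 10 AVT, 3 isoflavone reductase-like, 12 kelch F-box and 5 flavin monooxygenase genes. The 4 called were AT5G43180 and AT4G39230, given above, AT5G02170 of the AVT family (0.51, adjusted p = 0.0210) and the kelch F-box gene AT1G26930 (-0.45, adjusted p = 0.0466).

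**Figure D5:**
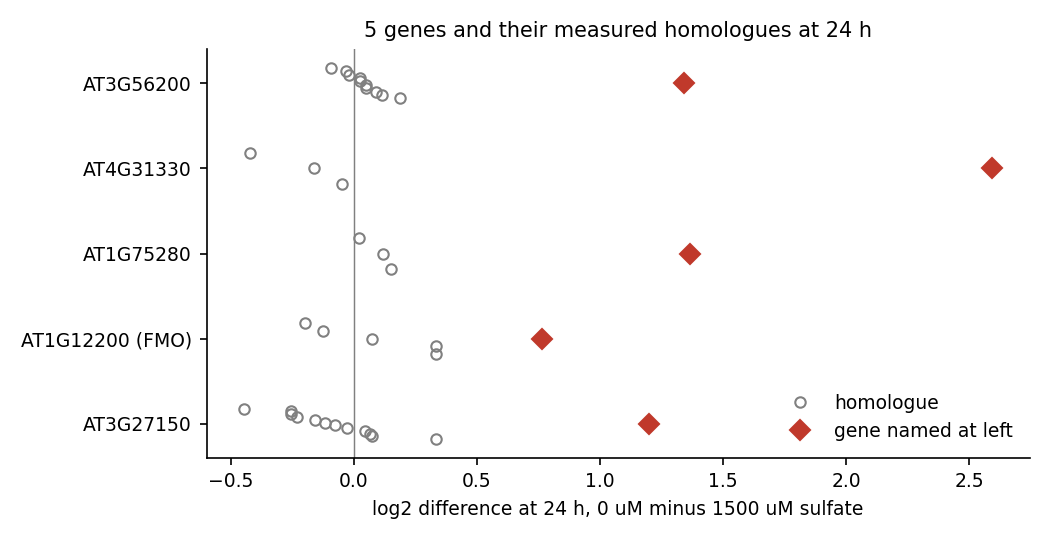
Log2 difference between media at 24 h (0 uM minus 1500 uM sulfate) for the 5 genes, shown as diamonds, and for their homologues that passed the filter, shown as open circles in the row of the gene they resemble. The homologues lie between -0.45 and 0.34, and the 5 genes between 0.77 and 2.59.

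Of 28 genes known from sulfur limitation, 6 were on named probe sets and 5 were tested. AT1G04770, a sulfur deficiency induced gene of the family that represses glucosinolate synthesis, and AT5G40670, related to the lysosomal cystine exporter of animals, rose at 24 h in limma (log2 1.30 and 1.03, adjusted p = 0.00682 and 0.00149) and for the mean over times (1.08 and 0.57). APS3, APS4 and SIR, which encode ATP sulfurylases and sulfite reductase, were not called (0.79, -0.52 and -0.24). Of the 5 tested, 4 had an unadjusted p under 0.05 by limma at 24 h and 4 for the mean over times, with APS4 lower without sulfate. Over all probe sets kept, 0.359% were called at 24 h and 0.476% for the mean. The sixth, BGLU28, a beta-glucosidase gene, lay below the filter with 362 ± 42.6 at 24 h without sulfate and 8.03 ± 2.57 with it (SD, n = 2). Fitted without the filter it rose by 4.29 on the log2(signal + 11) scale (SE 0.26, adjusted p = 4.47e-07 by limma), a size that depends on the pseudocount. BGLU28 too was named after its values were seen, and the p-value takes no account of that. With the letter as a factor, the lists of homologues and sulfur limitation genes together had 4 calls at 24 h instead of 2, in either direction. The rise of AT1G04770 at 24 h was lost without the sulfate-free array A (adjusted p = 0.206) or the replete array B of 24 h (0.242), and that of AT5G40670 without the latter (0.0666). AT1G04770 rose on replete medium too (0.85 over the 5 times relative to untreated roots, adjusted p = 0.00750), as FMO did (0.43). Phosphate limitation genes were listed because miR2111 responds to phosphate, but 0 of 16 were on named probe sets.

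Patterns were compared over the 22 arrays, which share medium, time and letter, so Pearson's r is given as a description. The 5 genes were chosen on these arrays for a difference between media that grew with time. A high r among them therefore describes that choice in part. Among the 5 genes r lay between 0.598, for AT3G27150 and FMO, and 0.945, for AT4G31330 and AT1G75280, and 5 of 10 pairs were over 0.8. Over the 10 sulfate-free arrays r was between 0.725 and 0.987, and over the 12 replete and untreated arrays between -0.009 and 0.722. AT3G56200 and AT1G75280 kept the highest value in the latter, and AT3G27150 and FMO the lowest. After subtraction of the group means this order turned: AT3G27150 and FMO had the highest r of the 10 pairs, 0.752, and AT4G31330 and AT1G75280 the lowest, -0.149. With 2 arrays a group, only the difference between letters A and B is left after that subtraction. AT3G27150 and FMO are the genes with B above A in 9 of 11 groups each. The part of the letter in their r was not tested.

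Matches between members describe their choice in part. Among probe sets that list 1 gene, the 3 most like AT4G31330 were the members AT1G75280 (r = 0.945), AT3G56200 (0.920) and AT3G27150 (0.886). AT3G56200 was most like AT4G31330, AT1G75280 (0.912) and AT1G04770 (0.897). AT1G75280 was most like AT4G31330, AT3G56200 and the glutathione transferase gene GSTU27 (0.890). AT3G27150 was most like AT4G31330, AT2G41705 (0.857) and HL (0.845), a gene of the family of HAL2 nucleotidases. Neither of the latter 2 was called between media at 24 h (0.22 and 0.13, adjusted p = 1 for both).

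The best match of FMO among all 13647 other probe sets was APS3 (r = 0.842 over the arrays and 0.981 over the 11 group means), a gene for ATP sulfurylase, the first enzyme of sulfate assimilation. APS3 read 46.0 and 63.9 on the untreated arrays, 59.7 and 93.6 at 4 h, 76.1 and 89.8 at 8 h and 62.3 and 78.6 at 24 h on replete medium, and 117 and 142 at 24 h without sulfate. Like FMO it thus read higher on replete medium at 8 h than in untreated roots, although its mean over the replete times was not called (0.36, adjusted p = 0.378 by limma). The next among probe sets that list 1 gene were AT3G56200 (0.787, rank 5 among all probe sets) and AT1G04770 (0.777, rank 6). No probe set had r over 0.9 with FMO or with AT3G27150, whereas 8, 7 and 6 did with AT3G56200, AT4G31330 and AT1G75280.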

How the data were processed

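The authors deposited 1 intensity per probe set and array, on a linear scale. The signals come from MAS5, per the submitters' processing notes, and its version and target are not given here. The 2% trimmed mean was between 100.007 and 100.008 on every array, so no normalization was added. Of 22810 probe sets 64 controls were left out. The rest were put on a log2(signal + 11) scale, which understates changes of dim probe sets, and 13648 with a mean signal of about 27.0 or more (40th percentile) were kept. Arrays carry no counting depth, and their number limits the precision.

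All arrays entered 1 fit of the 11 groups without a block, so that the groups share 1 estimate of the spread (limma 3.58.1 in R 4.3.3, lmFit and eBayes with an intensity trend, 11 residual and 5.61 prior degrees of freedom). P-values are two-sided and adjusted by Benjamini-Hochberg across all probe sets kept, at a threshold of 0.05. The fit was also run on simulated arrays. Their noise was independent and held no effect of the letter, so that run cannot show whether a fit without a block suits these arrays. Probe sets were named from the platform annotation, with 1 gene for 13513, several for 503 and none for 8794, with symbols brought up to date from RefSeq's gene table. The build is unstated and no sequence was used, so no coordinates or sequences are given, and a planned count of promoter motifs was not made.

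The members and gene lists were chosen with earlier results of these data known. Besides the members, the text names the 3 probe sets most like each, listed genes that passed, and up to 3 of the brightest tested genes of each list. AT1G75290, AT1G75300 and BGLU28, which lie below the filter, and AT5G02170 and AT1G26930 were named after their values were seen. The letters A and B were taken to pair the arrays. Over probe sets, A minus B in sulfate-free roots correlated with A minus B in replete roots of the same time with r of 0.631, 0.607, 0.225, 0.316 and 0.429, and 54 of 55 pairs of groups had r over 0.1. Alternatives were pseudocounts of 1 and 32, no filter, quantile normalization, the letter as a factor, a block of time and letter, eBayes without a trend, only the arrays compared, and leaving out each array.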

Additional observations from a re-analysis of the deposited data

Results flagged for a closer look

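At 8 h AT4G31330 and AT3G27150 lay on opposite sides of the untreated roots in the 2 media. AT4G31330 was above them without sulfate on both arrays (log2 0.89) and below them on replete medium on both arrays (-0.27). AT3G27150 was above them without sulfate (0.45) and below them on replete medium (-0.30), again on both arrays of each. The difference itself is the one that chose these genes and was not tested. The replete differences alone were not called by limma (adjusted p = 0.561 and 0.510).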

How the results depend on the processing

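The count of 4 replete calls among 25 pairs of gene and time was 2 with a pseudocount of 32, 2 without the filter, 2 without the intensity trend and 2 with only the arrays of the groups compared. It lay between 0 and 4 when single arrays were left out, with 0 without the untreated array A, 1 without the untreated array B or either replete 12 h array, and 2 without any of the replete 2 h and 24 h arrays. With the letter as a replicate block it was 6. The single call for the mean over times became 0 with only the arrays compared, and 0 to 1 over the arrays left out (0 without either untreated array or the replete B arrays of 2, 12 or 24 h). The F-test called 2 with the letter block and 1 otherwise. Of the listed genes, the 2 calls at 24 h became 4 without the filter, 4 with the letter block, 3 with a block of time and letter and 0 with only the arrays compared, and lay between 0 and 2 over the arrays left out. The 2 calls for the mean over times became 4 without the filter, 3 with the letter block and 5 with a block of time and letter. Over all probe sets the letter factor raised the replete calls from 474, 326, 660, 872 and 5 at the 5 times to 918, 749, 1586, 2202 and 83, and those of the mean from 517 to 1415. Between media, calls went from 49 to 74 at 24 h and from 65 to 143 for the mean with the letter factor, and to 89 and 227 when time and letter formed the block. The difference of AT4G31330 at 24 h was 2.26 with a pseudocount of 32. No called value changed direction. Replete differences that were not called changed sign when single arrays were left out for AT4G31330 at 4 and 12 h (-0.21 to 0.08 at 4 h), AT1G75280 and FMO at 2 h and AT3G27150 at 24 h (0.04 to -0.14). The causes were not tested. Replete calls other than those of AT3G27150 were the same with and without the letter block. With 2 arrays a group, the precision is limited by their number.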
